A study of Mus musculus with 38 samples.

Results

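The matrix metalloproteases (Mmp genes), the ADAMTS proteases (Adamts genes) and the tissue inhibitors of metalloproteases (Timp genes) were taken by their gene symbols, every row of the expression table named Mmp, Adamts or Timp followed by a number. This gave 46 of 21705 genes, of which 23 were Mmp, 19 Adamts and 4 Timp genes. They were described across 10 groups of RNAseq libraries from mouse kidney tumours, cell lines made from such tumours, and normal kidney, 38 libraries in all. All tumours and cell lines carry a doxycycline (Dox) inducible MYC transgene (Tet-O-MYC) whose activator is driven by the kidney specific cadherin (Ksp) promoter in renal tubule cells. MYC mice carry this transgene alone (genotype MYC+), VM mice also lack Vhl (Vhl-/-; MYC +), removed by a tamoxifen-induced Cre under the same promoter, and VIM mice in addition lack Ink4a/Arf (Vhl-/-; MYC +; Ink-/-/Arf-/-) in every cell from birth. The cells named MYC-2983, VM-3055 and VIM-3039, each grown from 1 tumour, were sampled in 4 libraries labelled as maintained on Dox and in 4 labelled as withdrawn from it, and RNA was collected the day after plating. The tumours, 3 libraries for each genotype, came from mice maintained on Dox, and the 3 MYC tumour libraries come from 2 mice, since 2 of them carry the number 2983. The 5 normal kidneys are wild type, labelled vehicle, of which 2 carry B6 and 3 carry KT in their titles, with no word in the labels on what KT stands for. Dox, genotype and tumour cannot be told apart in a comparison with kidney. The labels of the VM and VIM cells give genotype and replicate only, and the line numbers come from the study's text. No ages are given in the labels, and nothing in them says whether the 4 libraries of a line came from separate cultures, so p-values in cells measure the spread between these libraries, which may be technical.

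Matrix metalloproteases are zinc enzymes that cut collagens, laminins and other proteins of the matrix around cells, and most are secreted as inactive precursors. The ADAMTS enzymes are secreted relatives with thrombospondin repeats, and cut proteoglycans such as aggrecan and versican, process procollagen, or cut von Willebrand factor. The TIMP proteins bind the active site of these enzymes and block it, TIMP2 also takes part in the activation of pro-MMP2 by the membrane-bound MMP14, and TIMP3 stays bound to the matrix and is abundant in kidney. Doxycycline itself is known to inhibit the activity of matrix metalloproteases, and no cells lacking the transgene were compared with and without Dox here, so that an effect of the agent and of the transgene on RNA cannot be told apart.

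All values are normalised values with the upper quartile of each library set to 1000, called units below. The libraries hold 8.22 M to 36.6 M estimated reads, and 3 reads, which served as the floor for detection, are worth 1.16 to 5.65 units. The mouse Myc row was lower in libraries labelled with Dox in each line (means of 676 against 1831 in MYC-2983, 383.8 against 1364 in VM-3055 and 381 against 1479 in VIM-3039 cells), and the species of the transgene is not given in the sources used here. Nolc1 and Ncl, known targets of MYC, were higher with Dox in all 3 lines (Nolc1 7626 to 8236 against 2783 to 2879 units in MYC-2983, 7471 to 8302 against 1538 to 1682 in VM-3055 and 7917 to 8112 against 1431 to 1547 in VIM-3039 cells). Vhl stood at 612 to 772 units in kidney, 468 to 559.7 in MYC, 40.2 to 79.9 in VM and 219 to 312 in VIM tumours, which are bulk tissue, and at 10.3 to 14.9 in VM-3055 and 8.32 to 18.1 in VIM-3039 cells with Dox against 433 to 461 in MYC-2983 cells. Cdkn2a, the Ink4a/Arf gene, stood at 30.1 to 95.5 units in VIM tumours and 24.9 to 34.7 in VIM-3039 cells with Dox, against 3392 to 4347 in VM tumours. It stood at 108, 2872 and 59.3 units in the MYC tumour libraries and at 0 to 3.795 in kidney, whose genotypes keep the gene. A low level of this row in tissue thus does not mark the VIM genotype. Of 7 renal epithelium markers, 6 or 7 were above the floor in every library of each group, and Pax2 was at or under it in all VM tumours. Their summed level was lower with Dox in each line (11560 to 13060 against 17440 to 18350 units in MYC-2983, 5932 to 6070 against 13510 to 13970 in VM-3055 and 7252 to 7377 against 13530 to 14540 in VIM-3039 cells). In cell lines the summed levels of 6 endothelial and 6 neutrophil markers reached at most 12.5 and 7.9 units. Of 7 leukocyte and macrophage markers, 4 or 5 were above the floor in every library of each cell group, while Emr1, or F4/80, did not rise above it in any. Their sum was 557 to 619 units with Dox and 1307 to 1386 without in MYC-2983, 467 to 531 and 1144 to 1212 in VM-3055, and 517 to 549 and 599.8 to 682 in VIM-3039 cells. The summed level of 9 fibroblast markers was 345 to 359.5 units in MYC-2983 cells with Dox and 1131 to 1320 without, 87.4 to 113 and 633 to 712 in VM-3055 cells, and 56.9 to 75.6 and 192 to 248 in VIM-3039 cells, with Lum and Thy1 at or under the floor in both VM-3055 and VIM-3039 cells. The epithelial, leukocyte and fibroblast sums were thus lower with Dox, as were most of the genes below, and their part in the results was not tested.

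Of the 23 Mmp genes, 10 lie side by side on chromosome 9, between 7272514 and 7699585 in the mm9 assembly. They include Mmp13, a collagenase, Mmp10 and Mmp3, the stromelysins, Mmp12, the elastase of macrophages, Mmp8, the collagenase of neutrophils, and Mmp7, or matrilysin. The 250 bases before the start of transcription were read from RefSeq promoters (GRCm38.p6) for the 32 genes of the 46 that have an entry. They were searched on both strands for TGANTCA, the site of AP-1 (TGAGTCA or TGACTCA) widened to any base in the middle. AP-1 is a known regulator of several Mmp genes. A gene was counted where any of its promoter entries held a match, in the members as in all genes. A match was found in 8 of the 10 cluster genes and in 0 of the other 22, which makes 8 of 32 (25.0%) against 7.82% of 27025 genes. The match of Mmp20 reads TGAATCA, which is not the narrower site, and the share over all genes admits such matches too. Searched the same way, the E-box CACGTG, which MYC can bind, was present in 2 of the 32 (6.25%, Mmp7 and Adamts17, against 6.86% of all), and ACGTG, the core of the hypoxia response element, in 7 (21.9%, against 18.5%), where every CACGTG is also an ACGTG. Mmp12 and Mmp7 have 2 entries each, of which 1 holds the AP-1 letters and the other does not. The 120 bases before the start are given for 4 genes of the cluster that behave differently in the data below, with the AP-1 letters in capitals. The stretches lie at chr9:7502222-7502341 for Mmp10, chr9:7272394-7272513 for Mmp13, chr9:7347254-7347373 for Mmp12 and chr9:7558309-7558428 for Mmp8, all on the plus strand of GRCm38.p6. The Mmp12 stretch comes from the downstream of its 2 entries, and the upstream one has no match.
Mmp10: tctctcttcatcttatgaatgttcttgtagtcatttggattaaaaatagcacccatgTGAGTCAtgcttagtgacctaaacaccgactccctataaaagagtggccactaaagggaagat
Mmp13: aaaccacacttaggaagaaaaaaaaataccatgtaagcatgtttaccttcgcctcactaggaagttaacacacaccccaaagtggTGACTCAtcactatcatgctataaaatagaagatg
Mmp12: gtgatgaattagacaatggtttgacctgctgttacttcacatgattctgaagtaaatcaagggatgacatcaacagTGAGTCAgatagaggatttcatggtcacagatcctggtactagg
Mmp8: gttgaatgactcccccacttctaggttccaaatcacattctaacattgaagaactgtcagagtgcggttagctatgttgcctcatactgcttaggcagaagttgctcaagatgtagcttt
Mmp10, Mmp13 and Mmp8 were found in the cell lines and were lower with Dox, whereas Mmp12 was at or near 0 in cells and high in tumours. Mmp8 has no AP-1 letters in this window. A match of letters is a description and not a measured binding site.

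Of the 46 genes, 42 rose above the floor in at least 1 library. Mmp1a, Mmp1b and Adamts19 were at 0 in all 38, which allows up to 3 reads in each, and Adamts18 never exceeded the floor. The number above the floor in every library of a group was lowest in VIM-3039 cells with Dox (18) and VM tumours (21), and highest in MYC-2983 cells without Dox (30). Of all genes in the table, 55.45%, 59.02% and 61.17% were above it in these groups, in the order given, and the floor depends on depth. Per kilobase of exons, in the mm9 annotation, Adamts1, a protease of aggrecan and versican, had the highest mean level of all members in the 6 cell groups and the 3 tumour groups, from 914 ± 494 units per kilobase in VIM tumours (SD, n = 3) to 6414 ± 234 in VM-3055 cells without Dox (SD, n = 4). In normal kidney, Timp3 came first with 7084 ± 1095 units per kilobase (SD, n = 5), followed by Timp2 with 172 ± 60.4 and Adamts1 with 171 ± 33.9, a pair whose values overlapped. The inhibitors Timp1, Timp2 and Timp3 and the proteases Adamts1, Adamts4 and Adamts5 filled most of the leading ranks in cells, whereas among Mmp genes only Mmp2, Mmp10, Mmp12, Mmp14 and Mmp15 reached the first 6 in any group. Timp1, Timp3 and Timp4 lie within the genes Syn1, Syn3 and Syn2 on the opposite strand. The libraries were made with a stranded kit, but whether strand was used in counting is not given in the sources used here.

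**Figure D1:**
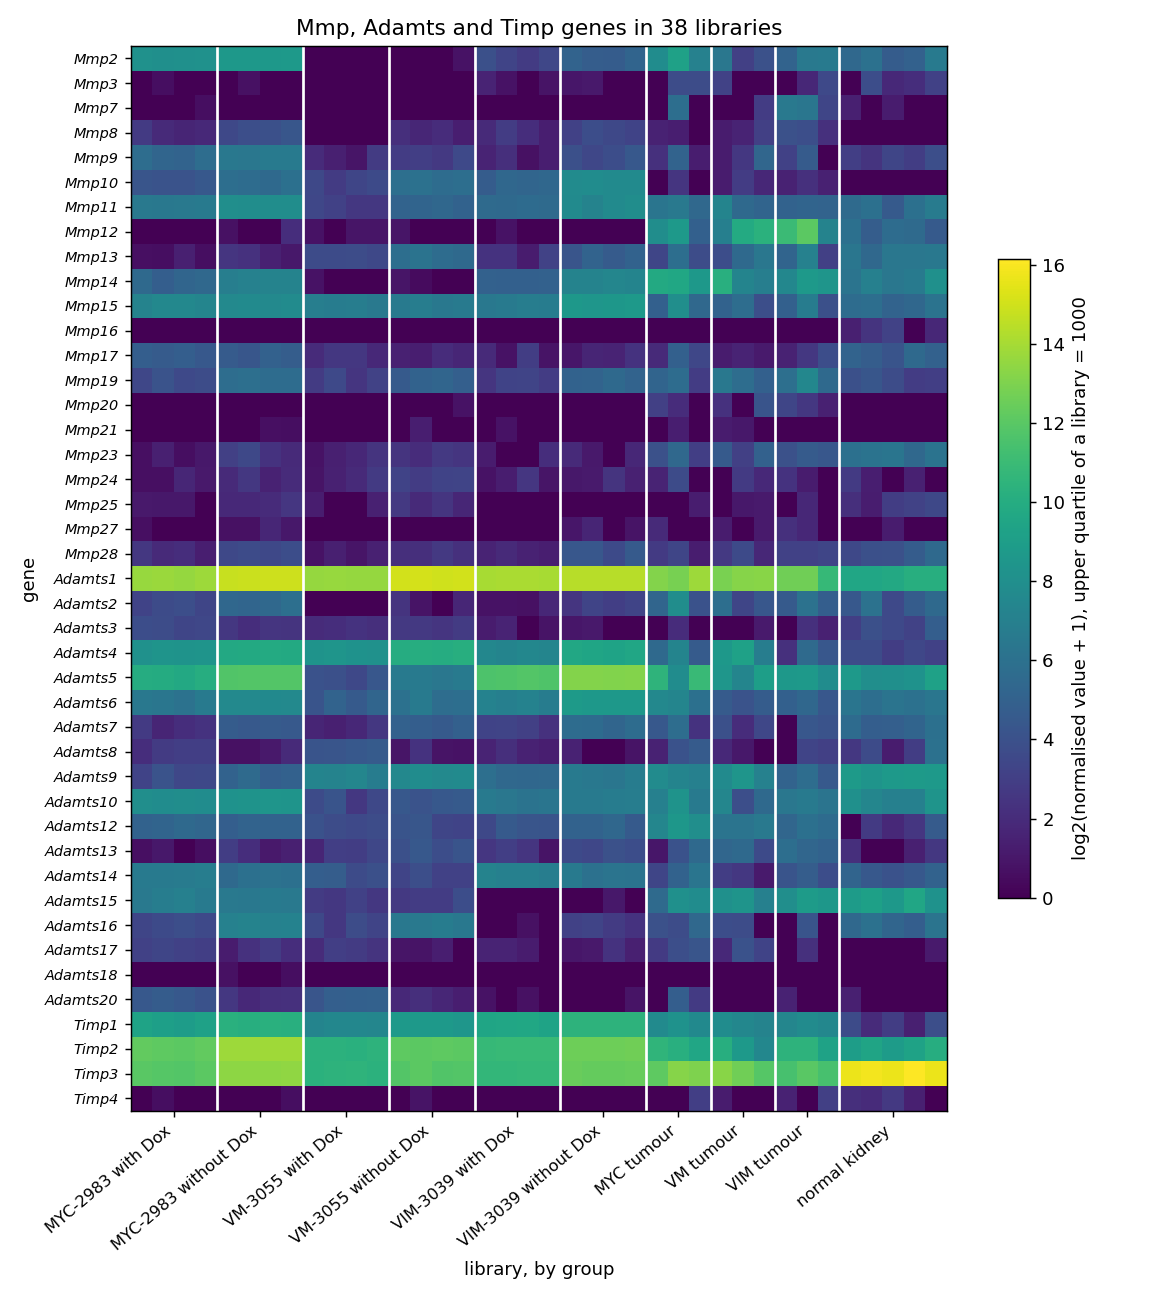
Level of the 43 Mmp, Adamts and Timp genes above 0 in at least 1 library (rows) in each of 38 libraries (columns, grouped by condition), as log2(normalised value + 1). Adamts1, Timp2 and Timp3 are bright across all groups, Timp3 is brightest in normal kidney, and Mmp12 is dark in all cell lines and bright in tumours.

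The first comparison asked how these genes respond to Dox in each cell line. With Dox, 26 of the 35 members tested in MYC-2983 cells passed (4 higher and 22 lower), against 19.5% of all 15104 genes tested (4.49% higher and 15% lower). The criterion was an adjusted p under 0.05 in limma together with a log2 fold change beyond 1 in either direction. In VM-3055 cells 22 of 32 passed (3 higher and 19 lower), against 24.8% of 14319 genes (5.92% higher and 18.9% lower), and in VIM-3039 cells 21 of 32 (1 higher and 20 lower), against 24.3% of 13998 genes (7.67% higher and 16.6% lower). The median log2 change of the members tested was −1.20, −1.25 and −1.54, where that of all genes tested was −0.13, −0.26 and −0.15. With quantile normalization, the split in VM-3055 cells was 5 higher and 12 lower, where that of all genes was 1503 and 1593. That setting took Timp1 below the limit of 1 in MYC-2983 (−0.98) and VM-3055 cells (−0.96) and Adamts1 in MYC-2983 cells (−0.87), and ended the calls of Mmp9, Mmp13, Mmp25 and Adamts6 in MYC-2983 cells, of Mmp9, Mmp24, Mmp25, Mmp28, Adamts6 and Adamts13 in VM-3055 cells and of Mmp2, Mmp8 and Adamts9 in VIM-3039 cells. Among genes averaging 50 units or more, the median log2 change was −0.17 in VM-3055 cells, which median-ratio rescaling set to about 0. With that rescaling 4 members were higher and 19 lower, where 1189 and 2179 of all genes were. Of the 28 members tested in all 3 lines, 15 were lower with Dox in each of them, where 8.23% of the 13378 genes tested in all 3 were. These 15 are Mmp8, Mmp9, Mmp10, Mmp11, Mmp13, Mmp19, Mmp28, Adamts4, Adamts5, Adamts6, Adamts7, Adamts13, Adamts16, Timp2 and Timp3. Only Adamts8 was higher in all 3 (2.24% of genes), and no member passed in opposite directions in 2 lines. Members not tested lacked the reads to enter the fit, and since a gene enters through whichever group holds its reads, these counts are not of all 46.

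**Figure D2:**
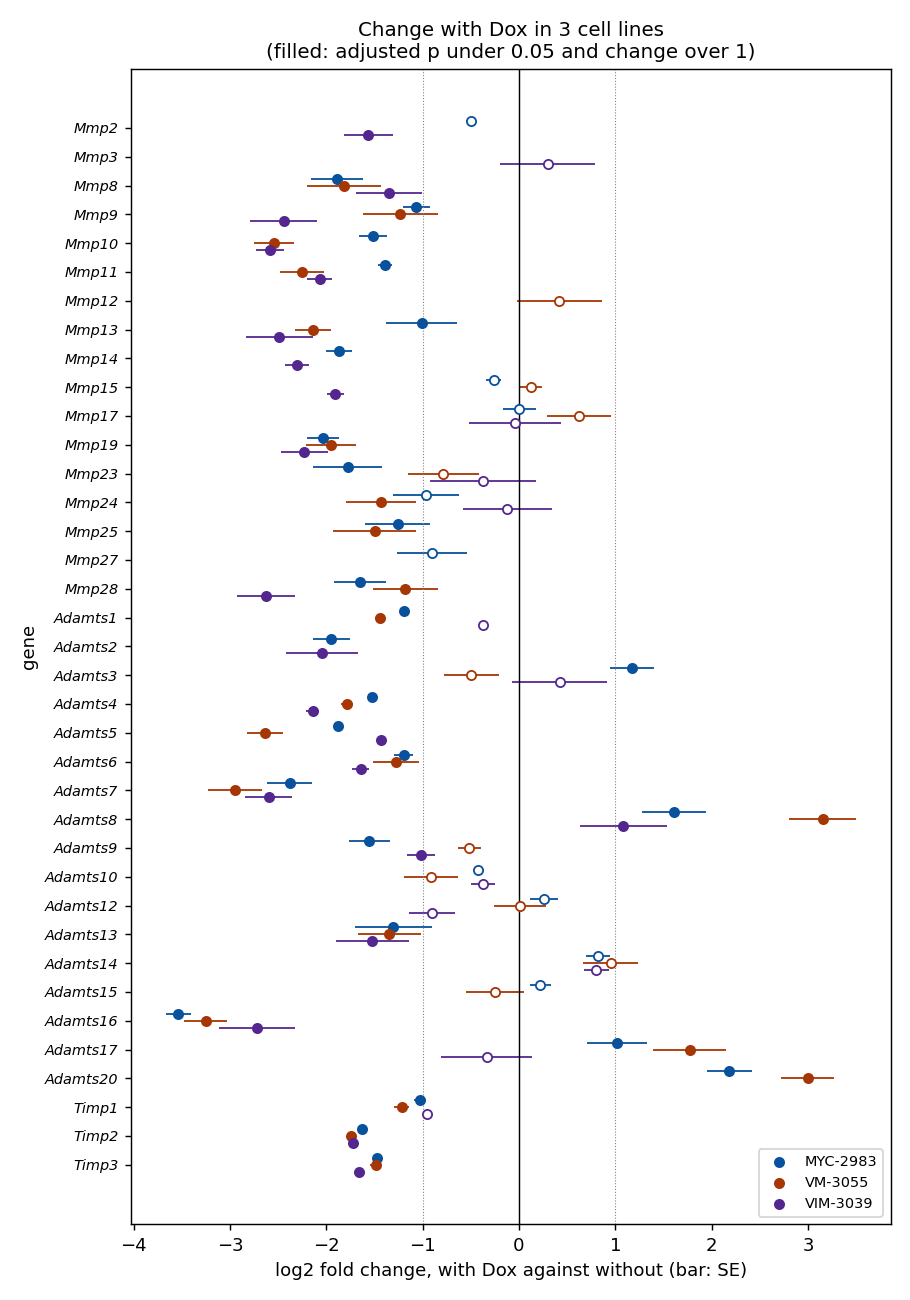
The log2 fold change with Dox against without in MYC-2983 (blue), VM-3055 (orange) and VIM-3039 cells (purple) for every member tested in a line, with SE as bars and filled points for genes that passed. Points lie to the left of 0 for most genes, Adamts16 lies farthest left in MYC-2983 cells (−3.53), and Adamts8, Adamts17 and Adamts20 lie to the right in MYC-2983 and VM-3055 cells.

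Timp2 and Timp3 fell in all 3 lines. Timp2 (chromosome 11, 118162383 to 118217054) stood at 4927, 4517, 4259 and 4894 units in the 4 MYC-2983 libraries with Dox and at 14100, 14120, 14520 and 14540 in those without. In VM-3055 cells it stood at 1331, 1299, 1239 and 1385 and at 4421, 4406, 4450 and 4332 units, and in VIM-3039 cells at 1801, 1881, 1906 and 1852 and at 6052, 6042, 6168 and 6262. The groups do not overlap in any line, and the log2 fold change was −1.62 ± 0.038, −1.75 ± 0.043 and −1.72 ± 0.03 (SE, adjusted p between 3.74e-21 and 6.46e-16 in limma). Timp3 (chromosome 10, 85763117 to 85812251) was at 4092, 3833, 3578 and 4229 units with Dox and 10790, 10820, 10800 and 11130 without in MYC-2983 cells, at 1271 to 1418 against 3545 to 4327 in VM-3055 cells and at 1635 to 1736 against 5185 to 5495 in VIM-3039 cells. It fell by a similar measure, with log2 fold changes of −1.47 ± 0.039, −1.49 ± 0.058 and −1.66 ± 0.032 (SE, adjusted p of at most 1.44e-13). Timp1 (chromosome X, 20447292 to 20451861), the inducible inhibitor, fell in MYC-2983 (−1.03 ± 0.061, SE, adjusted p = 2.24e-11) and VM-3055 cells (−1.22 ± 0.078, SE, adjusted p = 1.32e-10), and its change of −0.95 ± 0.044 (SE, adjusted p = 1.48e-14) in VIM-3039 cells stayed within the limit of 1. The MYC-2983 value lies at that limit, and without the third library with Dox it was −0.95. Timp4 was not tested in cells, where it did not exceed the floor.

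Among the collagenases and stromelysins, Mmp10 stood at 24.99, 41.6, 38.1 and 40.4 units in VIM-3039 cells with Dox and at 224, 231, 212 and 207 without. Its log2 fold change was −2.58 ± 0.14 (SE, adjusted p = 3.08e-13). In VM-3055 cells it was at 10.3, 5.96, 9.34 and 11.4 units with Dox and 59.1, 64.4, 50.4 and 56.2 without (−2.54 ± 0.21, SE, adjusted p = 3.67e-09). In MYC-2983 cells it was at 18.4, 16.9, 16.8 and 20.4 and 57.1, 51.98, 45.7 and 60.9 (−1.52 ± 0.15, SE, adjusted p = 2.33e-08). No library with Dox reached the level of any library without it. Mmp13 was highest in VM-3055 cells, at 11.8, 11.9, 12.7 and 10.5 units with Dox and 56.4, 71.3, 51.2 and 44.8 without (−2.14 ± 0.19, SE, adjusted p = 9.54e-09). It stood at 1.31 to 8.08 against 18.03 to 34.6 in VIM-3039 cells (−2.49 ± 0.35, SE, adjusted p = 1.18e-06). In MYC-2983 cells all libraries with Dox were at or under the floor, at 0.559, 0.544, 1.62 and 0.524 units against 4.59, 3.95, 1.74 and 1.09 without. The call was lost without the first library without Dox (−0.79, adjusted p = 0.0809), without the second (−0.85, adjusted p = 0.0706), and without any of libraries 1, 2 and 4 with Dox (−0.94 to −0.95). Mmp8 fell in MYC-2983 (2.17 to 5.59 against 10.5 to 19.04 units) and VIM-3039 cells (1.62 to 6.24 against 7.59 to 13.4). In VM-3055 cells it was listed at 0 in all 4 libraries with Dox and at 1.52 to 3.53 without, near the floor of 1.16 to 2.65 units in the latter.

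The gelatinase Mmp9 was at 52.5, 37.5, 34.7 and 54.5 units in MYC-2983 cells with Dox and 88.6, 82.9, 101 and 101 without, a change of −1.06 ± 0.14 (SE, adjusted p = 2.01e-06) that came to less than 1 when the second or the third library with Dox was left out (−0.99 and −0.95). It stood much lower in VM-3055 (0.849 to 6.14 against 5.43 to 10.6) and VIM-3039 cells (0.656 to 3.47 against 10.03 to 20.7). Without the third VM-3055 library with Dox the change there was −0.93. Mmp11, or stromelysin 3, fell in all 3 lines (−1.39 ± 0.069, −2.25 ± 0.23 and −2.07 ± 0.13, SE), from 237 to 255 units without Dox to 88.1 to 101 with it in MYC-2983 cells. Mmp19, which acts on basement membrane proteins, fell in all 3 as well (−2.03 ± 0.17, −1.95 ± 0.26 and −2.23 ± 0.24, SE). The membrane-bound Mmp14, which activates pro-MMP2 (chromosome 14, 55050441 to 55060095), fell in MYC-2983 cells from 121, 138, 149 and 150.2 units without Dox to 44.2, 27.2, 37.9 and 42.5 with it (−1.87 ± 0.14, SE, adjusted p = 4.31e-10). It fell in VIM-3039 cells from 146, 146, 167 and 154 to 31.2, 29.8, 29.5 and 30.7 (−2.30 ± 0.12, SE, adjusted p = 2.18e-13). Mmp2 itself, the other gelatinase, stood at 267 to 292 units with Dox and 382 to 427 without in MYC-2983 cells, a difference under the limit of 1 (−0.500 ± 0.049, SE, adjusted p = 3.42e-08). It fell in VIM-3039 cells from 34.2, 25.6, 24.5 and 35.7 to 14.6, 9.01, 5.91 and 9.69 (−1.56 ± 0.26, SE, adjusted p = 1.09e-05). Mmp15, another membrane-bound member, passed in VIM-3039 cells, with 86.8 to 114 units with Dox and 352 to 409 without (−1.91 ± 0.089, SE, adjusted p = 1.78e-14). It stood at 92.98 to 120.4 against 87.6 to 114 in VM-3055 cells (0.12 ± 0.12, SE, adjusted p = 0.366).

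Adamts1 (chromosome 16, 85794072 to 85803358) and Adamts5 (chromosome 16, 85858415 to 85901370), neighbours on chromosome 16 that both cut aggrecan, were among the most abundant members. Adamts1 stood at 13020, 13230, 12400 and 14070 units with Dox and 28820, 29520, 30800 and 30950 without in MYC-2983 cells (−1.19 ± 0.037, SE, adjusted p = 2.19e-15). It stood at 12430, 12980, 12570 and 12090 and 34120, 35680, 32780 and 33450 in VM-3055 cells (−1.44 ± 0.05, SE, adjusted p = 3.68e-14). In VIM-3039 cells it stood at 17030, 17180, 17380 and 16790 and 22150, 22230, 22060 and 22070 (−0.37 ± 0.031, SE, adjusted p = 3.09e-10), where the groups are apart but the change is below 1. Adamts5 stood at 858 to 1056 against 3478 to 3621 units in MYC-2983 cells (−1.87 ± 0.045, SE, adjusted p = 8.11e-17) and at 10.2 to 20.2 against 84.5 to 102 in VM-3055 cells (−2.63 ± 0.19, SE, adjusted p = 5.25e-10). It stood at 3159, 3352, 3554 and 3290 against 9160, 9145, 8855 and 8949 in VIM-3039 cells (−1.44 ± 0.034, SE, adjusted p = 2.14e-19). Adamts4, the other main aggrecanase, fell in each line, with 290.1 to 321 units with Dox against 858 to 924 without in MYC-2983 cells, 281 to 341 against 1018 to 1134 in VM-3055 cells and 156 to 175 against 666 to 804 in VIM-3039 cells. Its log2 fold changes were −1.53 ± 0.042, −1.78 ± 0.063 and −2.14 ± 0.066 (SE). Among the members tested, Adamts16 had the lowest log2 fold change, in MYC-2983 cells, where it fell from 138, 149, 135 and 144 units to 9.504, 11.4, 13.5 and 11.01 (−3.53 ± 0.13, SE, adjusted p = 2.82e-14). In VM-3055 cells Adamts16 fell from 85.5, 91.5, 108 and 85.8 to 10.3, 5.11, 12.7 and 8.77 (−3.25 ± 0.22, SE, adjusted p = 3.04e-10). In VIM-3039 cells, whose libraries with Dox did not exceed the floor, it was at least 2.76-fold lower. Adamts7, which cuts cartilage oligomeric matrix protein, fell in all 3 lines (−2.38 ± 0.24, −2.95 ± 0.28 and −2.597 ± 0.24, SE), with 1.70 to 9.01 units with Dox and 21.7 to 52.3 without over the 12 libraries each. Adamts6 and Adamts13, the protease of von Willebrand factor, also fell in all 3 lines, the latter from low levels of 1.16 to 6.56, 13.2 to 20.9 and 10.03 to 15.3 units without Dox. Its change came to −0.96 without the first MYC-2983 library without Dox and to −0.99 without the first VM-3055 library with it. Adamts9, a versican protease, fell in MYC-2983 (−1.55 ± 0.21, SE, adjusted p = 2.57e-06) and VIM-3039 cells (−1.02 ± 0.15, SE, adjusted p = 2.06e-06), the latter at the limit and below it in size without any of 5 libraries (between −0.95 and −0.9996). It stood at 108 to 166 against 186 to 228 units in VM-3055 cells (−0.51 ± 0.12, SE, adjusted p = 8.56e-04). Adamts2, a procollagen protease, fell in MYC-2983 (−1.95 ± 0.19, SE, adjusted p = 2.91e-08) and VIM-3039 cells (−2.04 ± 0.37, SE, adjusted p = 4.26e-05).

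Few members rose with Dox. Adamts20 stood at 20.7, 25.01, 21.1 and 15.7 units with Dox and 5.25, 2.63, 3.47 and 3.81 without in MYC-2983 cells (2.19 ± 0.23, SE, adjusted p = 9.06e-08). It stood at 17.7, 28.9, 29.7 and 31.6 and 2.65, 3.49, 2.33 and 1.52 in VM-3055 cells (3.0 ± 0.28 SE, adjusted p = 1.72e-08). Adamts8, an inhibitor of vessel growth, stood at 17.5, 17.8, 21.2 and 23.7 units with Dox and 0.882, 4.19, 0.775 and 0.7596 without in VM-3055 cells (3.15 ± 0.35, SE, adjusted p = 1.85e-07). It was at or below 7.04 units in the other lines, where its call in VIM-3039 cells (1.08 ± 0.45, SE, adjusted p = 0.0359) was lost without any of libraries 1, 2 and 3 with Dox or 2 and 3 without (adjusted p between 0.0616 and 0.119). Adamts17 rose in MYC-2983 and VM-3055 cells at levels under 10 units. Adamts3, a procollagen protease, rose in MYC-2983 cells, with 9.21 to 12.9 units with Dox and 3.29 to 5.25 without. The MYC-2983 change of Adamts17 was below 1 without the second library with Dox (0.95) or the first without it (0.71). Adamts14, a close relative of Adamts3, had log2 fold changes of 0.82 ± 0.12, 0.95 ± 0.29 and 0.81 ± 0.13 (SE) and passed in no line.

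The second comparison asked how the lines differ. With Dox, 20 of 34 members differed between VIM-3039 and VM-3055 cells (12 higher in VIM-3039 and 8 lower), against 19.1% of 14060 genes (9.69% higher and 9.45% lower). Without Dox 23 of 34 differed (14 higher and 9 lower), against 21.7% of 14461 genes (9.21% higher and 12.5% lower). VM-3055 cells differed from MYC-2983 cells with Dox in 21 of 34 (4 higher and 17 lower), against 24.6% of 14780 genes (6.54% higher and 18.1% lower). VIM-3039 differed from MYC-2983 cells in 18 of 34 (4 higher and 14 lower), against 23.9% of 14685 genes (5.66% higher and 18.3% lower). With quantile normalization those splits were 7 higher and 14 lower, and 10 and 12, where those of all genes were 1953 and 1781, and 1673 and 1779. The calls of Adamts8 and Adamts12 in VIM-3039 cells and of Adamts3, Adamts6 and Adamts12 in VM-3055 cells against MYC-2983 cells, and of Mmp13 between VIM-3039 and VM-3055 cells without Dox, were lost with it. The comparisons with MYC-2983 cells share the MYC-2983 libraries. Each genotype is represented by 1 line from 1 tumour, so that genotype and line cannot be told apart.

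**Figure D3:**
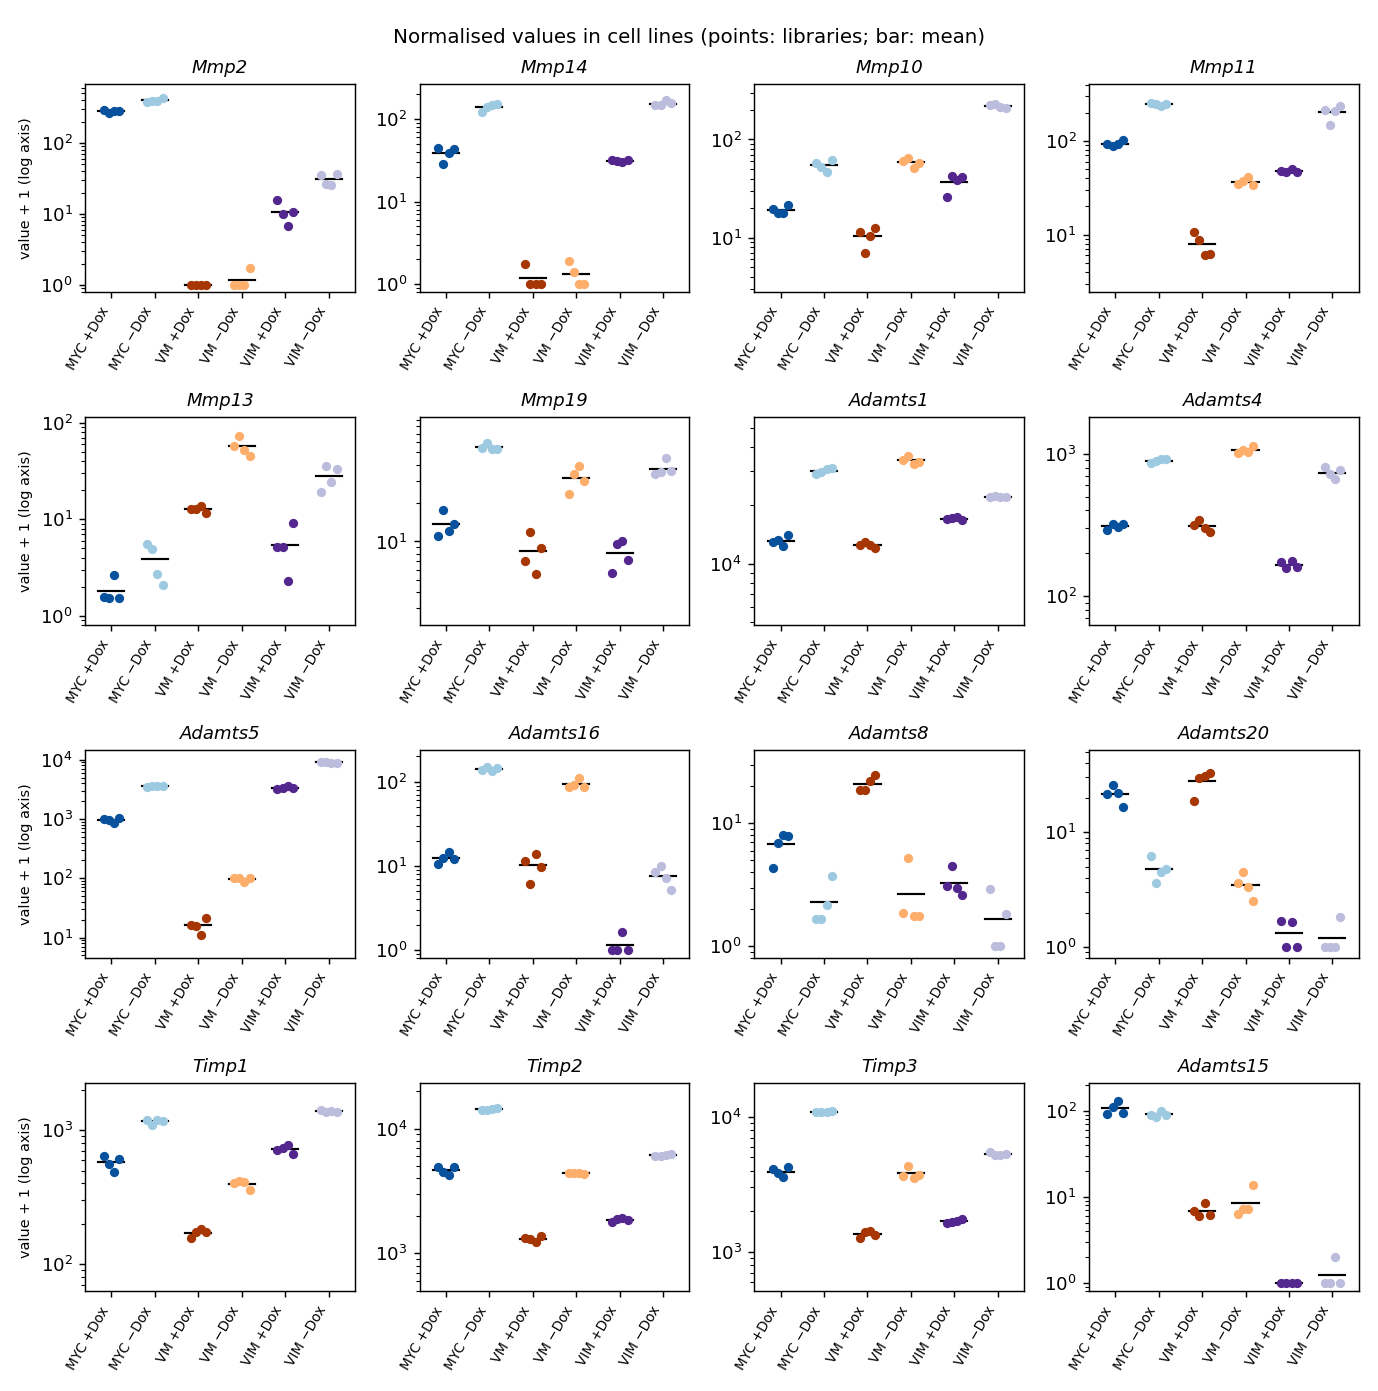
Normalised value + 1 on a log axis in each cell library for 16 members, with points for libraries and bars for the mean of 4. VM-3055 cells lie at or near 0 for Mmp2 and Mmp14, VIM-3039 cells for Adamts15, and Adamts5 in VM-3055 cells lies below both other lines.

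VM-3055 cells lacked 2 members that the other lines held. Mmp2 was at 0, 0, 0 and 0 units in the 4 VM-3055 libraries with Dox and 0, 0, 0 and 0.7596 in those without, all at or under the floor. With Dox, MYC-2983 cells held 292, 267, 279.6 and 280.4 and VIM-3039 cells 14.6, 9.01, 5.91 and 9.69. It was thus at least 106-fold lower in VM-3055 than in MYC-2983 cells (adjusted p = 5.27e-14) and at least 3.72-fold lower than in VIM-3039 cells. Mmp14 did not exceed the floor in these libraries either (0.739, 0, 0 and 0 with Dox), and VIM-3039 cells held 31.2, 29.8, 29.5 and 30.7. It was at least 11.5-fold lower with Dox and at least 58.03-fold lower without. VM-3055 cells thus held neither Mmp2 nor Mmp14 at a detectable level. Timp2, which takes part in the activation of pro-MMP2 by MMP14, was present at 1239 to 1385 units with Dox. Adamts5 was at 15.5, 14.5, 10.2 and 20.2 units in VM-3055 cells with Dox, against 1012, 967, 858 and 1056 in MYC-2983 and 3159, 3352, 3554 and 3290 in VIM-3039 cells. The log2 difference between VIM-3039 and VM-3055 cells was 7.73 ± 0.13 (SE, adjusted p = 5.15e-17) with Dox and 6.54 ± 0.057 (SE, adjusted p = 1.41e-20) without. Its neighbour Adamts1 differed by 0.45 ± 0.031 (SE) in the same comparison with Dox, less than 1.

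VIM-3039 cells lacked other members. Adamts15, an aggrecanase, was at 0, 0, 0 and 0 units with Dox, against 91.1, 112, 132 and 94.9 in MYC-2983 cells, at least 44.3-fold lower. VM-3055 cells held 5.91, 5.11, 7.64 and 5.26. Adamts20 was at or under the floor in VIM-3039 cells with Dox, at least 8.52-fold lower than in MYC-2983 and 11.1-fold lower than in VM-3055 cells. Adamts16 was at least 4.69-fold lower than in MYC-2983 cells. Higher in VIM-3039 than in VM-3055 cells with Dox were Mmp10 (1.87 ± 0.24), Mmp11 (2.63 ± 0.22), Adamts6 (2.21 ± 0.21), Adamts10 (2.85 ± 0.26), Adamts14 (2.75 ± 0.23) and Timp1 (2.08 ± 0.065, SE, adjusted p = 7.67e-14). Timp1 stood at 713, 736, 772 and 659 against 154, 174, 180 and 171 units. Lower in VIM-3039 cells were Adamts9 (−1.63 ± 0.15, SE), at 40.7 to 58.3 against 108 to 166 units, and Mmp13 (−1.39 ± 0.35). Timp2 and Timp3 were lower in both VM-3055 and VIM-3039 than in MYC-2983 cells with Dox (−1.82 ± 0.047 and −1.32 ± 0.042 for Timp2, −1.53 ± 0.05 and −1.23 ± 0.044 for Timp3, SE). Between VIM-3039 and VM-3055 cells they differed by 0.503 ± 0.037 and 0.31 ± 0.039, under the limit. Adamts2, at or under the floor in both lines, Adamts3 and Adamts7 also passed between VIM-3039 and VM-3055 cells with Dox, and each call was lost without at least 1 library (adjusted p of 0.0661 to 0.0694 for Adamts2, changes of 0.93 and 0.97 for Adamts7 and −0.93 for Adamts3).

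The response to Dox itself differed between VIM-3039 and VM-3055 cells for 10 of 36 members, tested as the interaction of line and Dox, against 6.05% of 15180 genes. Of these 10 the difference was positive in 3 (3.7% of genes) and negative in 7 (2.35%). With a pseudocount of 0.1 the split was 3 and 2, and with a filter at a mean of 10 units 2 and 2. Those of all genes were 465 and 219, and 341 and 200. Mmp15 alone of the 10 was called under every setting that tested it. Adamts1 fell less in VIM-3039 cells (difference of the log2 changes 1.07 ± 0.054, SE, adjusted p = 1.38e-12), and so did Adamts5 (1.196 ± 0.16, SE, adjusted p = 5.04e-06). Mmp15 (−2.03 ± 0.15, SE, adjusted p = 7.88e-10) and Mmp28 (−1.45 ± 0.40, SE, adjusted p = 0.00726) had the lower change in VIM-3039 cells. The differences of Mmp14 (−2.15 ± 0.36, SE, adjusted p = 8.09e-05) and Mmp2 (−1.36 ± 0.41, SE, adjusted p = 0.0138) rest on VM-3055 cells in which neither exceeded the floor with or without Dox. Adamts8 (−2.07 ± 0.53), Adamts17 (−2.11 ± 0.57) and Adamts20 (−2.85 ± 0.45) had negative differences as well. Adamts20 did not exceed the floor in any VIM-3039 library, and Adamts17 stood at 0 to 2.08 units with Dox and 0.949 to 4.08 without in these cells, where it did not pass. Mmp25 (1.497 ± 0.50, SE, adjusted p = 0.0242) was listed at 0 in all VIM-3039 libraries. Its call was lost without the second or the third VM-3055 library with Dox or the first without it (adjusted p between 0.0548 and 0.0599). With quantile normalization the split was 1 higher and 7 lower, in place of 3 and 7, where that of all genes was 403 and 433. The calls of Mmp2, Mmp25 and Adamts5 were lost there, and that of Adamts1 came to 0.99 with median-ratio rescaling.

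The third comparison asked how tumours differ from normal kidney. The 3 tumour comparisons share the 5 kidneys, and their values are given side by side. In MYC tumours 21 of 40 members tested passed (13 higher and 8 lower), against 37.1% of 16491 genes (19.4% higher and 17.7% lower). In VM tumours 24 of 41 passed (11 higher and 13 lower), against 39.8% of 16521 genes (17.3% higher and 22.5% lower). In VIM tumours 22 of 41 passed (11 higher and 11 lower), against 39.6% of 16569 genes (18.9% higher and 20.7% lower). With quantile normalization, MYC tumours had 10 higher and 10 lower, with every tumour library as a sample 8 and 9, and with the KT kidneys alone 10 and 4. The splits of all genes in these 3 settings were 3215 and 2979, 3193 and 3127, and 2656 and 2587. The calls lost with quantile normalization were those of Mmp8, Mmp19 and Adamts6 in MYC tumours, Mmp16, Mmp25, Mmp28 and Adamts15 in VM tumours and Mmp16 and Adamts7 in VIM tumours. These are bulk tissues, in which fewer cells of a type and less RNA per cell cannot be told apart. The summed level of 8 kidney tubule markers was 229200 to 320100 units in kidney and 1810 to 11390 in tumours. The sum of 7 leukocyte and macrophage markers went from 1426 to 2439 in kidney to 3842 to 18780 in tumours. That of the endothelial markers was 3674 to 6287 in kidney and 199 to 2091 in tumours, and that of the fibroblast markers 1560 to 5321 and 674 to 13060. The part of these shifts in the results below was not tested.

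**Figure D4:**
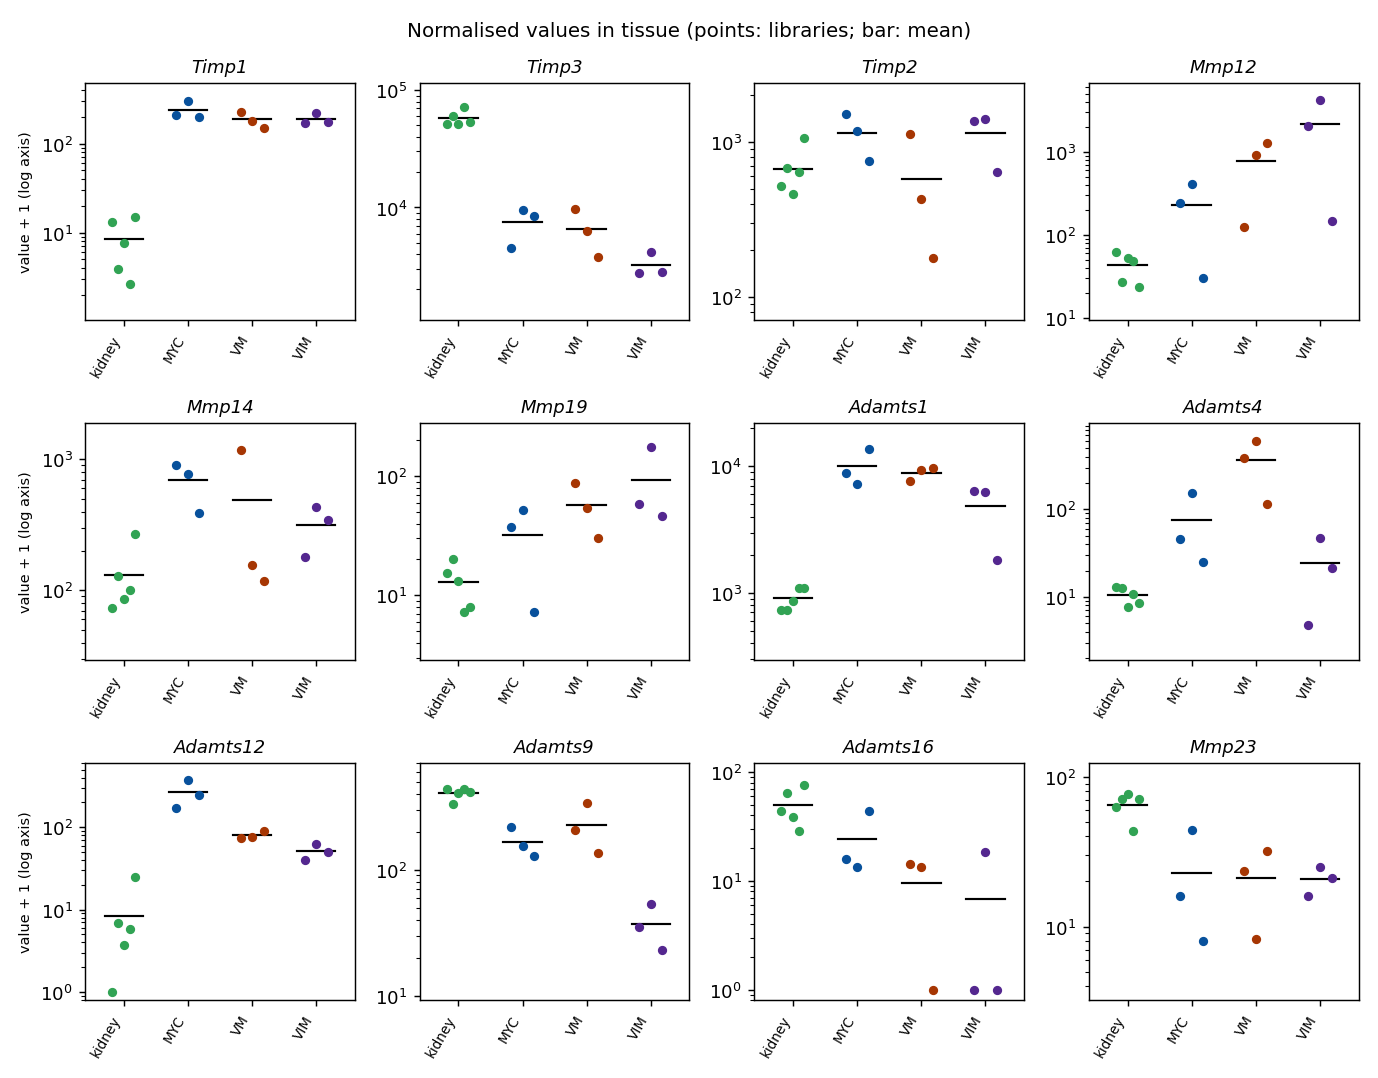
Normalised value + 1 on a log axis in each library of normal kidney (5) and of MYC, VM and VIM tumours (3 each) for 12 members, with bars for the mean. Timp1 and Adamts1 lie above kidney in all 9 tumour libraries, Timp3 lies below in all 9, and Mmp12, Mmp14 and Adamts4 spread widely within a genotype.

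Timp1 and Timp3 moved in opposite directions. Timp3 was at 51310, 59810, 51700, 72420 and 53230 units in the 5 kidneys and at 4538, 9571 and 8447 in MYC, 9709, 6353 and 3788 in VM and 2759, 4190 and 2821 in VIM tumours. Every tumour library lay far below every kidney, with log2 fold changes of −3.16 ± 0.34 (SE, adjusted p = 1.84e-04), −3.21 ± 0.30 (SE, adjusted p = 1.68e-05) and −4.16 ± 0.23 (SE, adjusted p = 1.75e-06). Timp1 was at 12.1, 2.92, 6.69, 1.63 and 13.9 units in kidney and at 211, 301 and 199 in MYC, 228, 179 and 150.4 in VM and 168, 217 and 174 in VIM tumours, and again no tumour reached a kidney. The log2 fold changes were 5.07 ± 0.73 (SE, adjusted p = 7.21e-04), 4.74 ± 0.62 (SE, adjusted p = 1.39e-04) and 4.76 ± 0.60 (SE, adjusted p = 1.47e-04). Timp2 did not pass in any genotype (0.91 ± 0.32, −0.54 ± 0.51 and 0.73 ± 0.33, SE), and tumours and kidneys overlapped. Timp4 stood at 0 to 5.36 units in kidney and at or under 7.34 in tumours.

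Adamts1 rose in all 3 genotypes, from 737, 737, 868, 1098 and 1090 units in kidney to 8911, 7230 and 13820 in MYC (3.44 ± 0.20, SE, adjusted p = 1.18e-05), 7714, 9296 and 9698 in VM (3.31 ± 0.18, SE, adjusted p = 5.41e-07) and 6405, 6310 and 1821 in VIM tumours (2.23 ± 0.39, SE, adjusted p = 9.63e-04). Adamts12 (chromosome 15, 10994545 to 11276622), another protease of cartilage oligomeric matrix protein, rose from 0, 5.84, 2.68, 4.89 and 24.04 units to 171, 375 and 246 in MYC, 73.2, 74.2 and 90.01 in VM and 39.5, 61.4 and 49.6 in VIM tumours, without overlap. The log2 fold changes were 5.48 ± 1.06 (SE, adjusted p = 0.00302), 3.95 ± 0.86 (SE, adjusted p = 0.00331) and 3.28 ± 0.86 (SE, adjusted p = 0.009804). Adamts4 rose from 6.69 to 12.1 units in kidney to 44.8, 153 and 24.01 in MYC (2.63 ± 0.46, SE, adjusted p = 0.00187) and 384, 606 and 113 in VM tumours (4.85 ± 0.54, SE, adjusted p = 5.08e-05). VIM tumours, at 3.77, 46.4 and 20.2, overlapped with kidney (0.704 ± 0.67, SE, adjusted p = 0.405). Adamts13 rose in VM (3.58 ± 0.76) and VIM tumours (4.19 ± 0.68, SE), to 11.1 to 45.4 and 33.04 to 56.5 units from at most 5.06 in kidney. Adamts5 rose in MYC tumours, at 1434, 227 and 1956 units against 248 to 591 in kidney (1.88 ± 0.34, SE, adjusted p = 0.00215). The call rests on the library of 1956 units, without which the change was 0.74 (adjusted p = 0.364). Adamts6 moved in opposite directions against kidney, higher in MYC (1.04 ± 0.31, SE, adjusted p = 0.0231) and lower in VM (−1.65 ± 0.33, SE, adjusted p = 0.00194) and VIM tumours (−1.21 ± 0.34, SE, adjusted p = 0.01304). Its MYC call was lost without the second tumour library (adjusted p = 0.258) or the second kidney (adjusted p = 0.0509), and its VIM change came to −0.95 without the third tumour.

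Among the Mmp genes, Mmp12 rose in all 3 genotypes, from 60.5, 26.3, 52.2, 47.2 and 22.8 units in kidney to 242, 409 and 29.7 in MYC (2.53 ± 0.45, SE, adjusted p = 0.00201), 124, 919 and 1266 in VM (3.72 ± 0.70, SE, adjusted p = 0.00139) and 2032, 4252 and 145 in VIM tumours (4.76 ± 0.92, SE, adjusted p = 0.00179). All VM and VIM tumours lay above all kidneys, while the third MYC tumour lay among them. Without the second MYC tumour library the MYC change was 1.11 (adjusted p = 0.263). Lyz2 and Cd68, which macrophages express, stood at 267 to 455 and 27.7 to 43.0 units in kidney and at 1325 to 11380 and 281 to 1571 in tumours. By library, the leukocyte and macrophage markers summed to 18780, 5208 and 5106 units in MYC, 9796, 3842 and 4677 in VM and 15500, 8734 and 8488 in VIM tumours. Their part in the Mmp12 values was not tested. Mmp19 rose from 6.29 to 19.3 units to 87.2, 52.9 and 29.4 in VM (2.14 ± 0.52, SE, adjusted p = 0.00581) and 57.5, 174 and 44.99 in VIM tumours (2.71 ± 0.55, SE, adjusted p = 0.00243). Its call in MYC tumours (1.48 ± 0.52, SE, adjusted p = 0.0432) was lost without the second tumour library (adjusted p = 0.624) or any of 4 kidneys. Mmp14 rose in MYC tumours, at 912, 778 and 391 units against 72.7, 128, 84.3, 99.3 and 271 in kidney (2.64 ± 0.48, SE, adjusted p = 0.00237). In VIM tumours the change (1.34 ± 0.45, SE, adjusted p = 0.0304) was lost without the second (1.08, adjusted p = 0.109) or the third tumour, or any of kidneys 1, 3 and 4. In VM tumours 1 library of 1188 units lay far above the other two (1.26 ± 0.72, SE, adjusted p = 0.166). Mmp2 rose in MYC tumours, at 234, 594 and 138 units against 25.4 to 101 (2.63 ± 0.54, SE, adjusted p = 0.004099). The change was 1.93 (adjusted p = 0.0189) without the second library, whose fibroblast markers summed to 13060 units against 1054 and 1384 in the other MYC tumour libraries. Mmp7, a protease of epithelia, rose in VIM tumours, at 90.4, 81.5 and 9.18 units against kidneys all at or under the floor, at least 11.6-fold higher (adjusted p = 5.58e-04). It did not pass in MYC tumours, which held 0 to 53.3 units per kilobase of exons and overlapped with VIM tumours at 8.56 to 84.3. Mmp8, Mmp10 and Mmp20 were listed at 0 in all kidneys and passed at tumour levels of at most 17.3 units. Mmp10, with exons of 1720 bases, stood at 1.07 to 2.19 units per kilobase in VIM tumours. The floor in these libraries was 3.76 to 5.65 units, so that Mmp10 lay at or near it although it passed. In MYC tumours Mmp8 reached 1.87 units at most and exceeded the floor in no library, so that neither group holds it at a detectable level. Its levels were 1.33 to 7.398 units in VM and 3.67 to 15.1 in VIM tumours, and the sum of 6 neutrophil markers was 17.3 to 45.5 units in kidney, 36.7 to 91.05 in MYC, 24.7 to 977 in VM and 169 to 422 in VIM tumours, whose part was not tested. Without any 1 of the 5 kidneys the call of Mmp8 in MYC tumours and that of Mmp20 in VM tumours was lost (adjusted p of 0.0587 to 0.0718 and 0.0592 to 0.0631).

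Several proteases fell in tumours. Mmp23 went from 62.3, 70.1, 76.3, 42.4 and 69.6 units in kidney to 14.9, 43.2 and 7.06 in MYC (−1.65 ± 0.39, SE, adjusted p = 0.00783), 22.6, 7.22 and 30.8 in VM (−1.799 ± 0.48, SE, adjusted p = 0.00988) and 15.1, 23.8 and 20.2 in VIM tumours (−1.65 ± 0.34, SE, adjusted p = 0.00276). VM and VIM tumours lay below every kidney and 1 MYC library (43.2 units) lay among them. Without the third MYC library its call was lost (adjusted p = 0.0540). Adamts9 fell in MYC (−1.20 ± 0.21, SE, adjusted p = 0.00203) and VIM tumours (−3.53 ± 0.29, SE, adjusted p = 1.22e-05), from 333 to 439.7 units to 128 to 216 and 22.03 to 52.6. It was at 136 to 338 in VM tumours (−0.93 ± 0.27, SE, adjusted p = 0.01501). Adamts16 fell in VM (−3.04 ± 0.84, SE, adjusted p = 0.0119) and VIM tumours (−4.16 ± 0.91, SE, adjusted p = 0.003698) from 27.7 to 74.6 units, and Adamts14 in VM tumours (−2.42 ± 0.53, SE, adjusted p = 0.00319). Adamts3 fell in all 3 genotypes, at least 2.95-fold in MYC and 3.41-fold in VM tumours. Mmp17, a membrane-bound member, was at least 7.703-fold lower in VM tumours and fell in VIM tumours (−2.29 ± 0.55, SE, adjusted p = 0.00606). Mmp13 was lower in MYC tumours (−1.95 ± 0.53, SE, adjusted p = 0.0152), a call lost without the third library (adjusted p = 0.0680). Adamts15, at 295 to 744 units in kidney, was lower in MYC (−2.09 ± 0.59, SE, adjusted p = 0.0182) and VM tumours (−1.05 ± 0.37, SE, adjusted p = 0.03499). The VM call was lost in limma without the third tumour (adjusted p = 0.149) or any of kidneys 1, 2 and 4 (adjusted p between 0.05975 and 0.0739). Adamts10 in VM and VIM tumours, Adamts7 in VIM tumours, Mmp25 in VM and VIM tumours, Mmp28 in MYC and VM tumours and Mmp16 in VM and VIM tumours also passed, and each of these calls was lost without at least 1 library. Mmp16 was at 0 in these tumours, had a mean of 3.33 units in kidney and exceeded the floor in only 1 of the 38 libraries. The calls of Mmp13, Adamts6, Adamts15, Mmp19, Mmp28 and Mmp25, the last of which also passed there, were lost in MYC tumours without the first library (adjusted p between 0.103 and 0.168), a fit in which 1 mouse remains and its spread is assumed to be that of the kidneys. Adamts7 also passed in VM tumours (−2.16 ± 0.53, SE, adjusted p = 0.00613), a call kept when any 1 VM tumour or kidney was left out.

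Compared with each other, tumours of the 3 genotypes gave no member that passed. Between VIM and VM tumours 0 of 40 passed in limma, 7 had an unadjusted p under 0.05, and 0.249% of 16096 genes passed (0.174% higher and 0.0746% lower). Between VM and MYC tumours 0 of 40 passed, where 0% of 16085 genes did, and between VIM and MYC tumours 0 of 40, where 0.00616% of 16246 genes did. There 5 and 9 members had an unadjusted p under 0.05 in limma. Of all genes tested, 1831, 2212 and 2379 had such a p in these 3 comparisons, in the order given. The limma voom fit on estimated reads also gave 0 in each, and the fit of all tissue groups together gave 2, 3 and 3, all lower. In the latter fit 469, 407 and 719 of all genes passed, of which 155, 291 and 377 were lower. Adamts4 stood at 384, 606 and 113 units in VM against 3.77, 46.4 and 20.2 in VIM tumours, without overlap (−4.15 ± 0.95, SE, adjusted p = 0.145). Mmp7 stood at 0, 0 and 6.17 against 90.4, 81.5 and 9.18 (4.46 ± 1.14, SE, adjusted p = 0.181). The spread between 3 tumours was wide, and these data do not show that the genotypes have equal levels.

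Finally, each line with Dox was set beside the tumours of its genotype, as a description without a test. MYC-2983 cells lay below all MYC tumours for 8 of 40 members and above them for 8, where 36% and 24.3% of 16391 genes did so. VM-3055 cells lay below VM tumours for 15 of 38 (40.3% of 15999 genes) and above for 8 (24.9%). VIM-3039 cells lay below VIM tumours for 13 of 39 (41.7% of 16097 genes) and above for 9 (23.9%). Mmp12, Mmp14, Mmp23, Adamts2, Adamts12 and Timp3 lay below the tumours in all 3 lines, and Timp2 and Adamts14 above them. Mmp12 was at most 0.877 units in the 12 cell libraries with Dox. The second VM tumour carries the number 3055, that of the cell line, and held 156 units of Mmp14 and 7.22 of Mmp2, both at or under the floor in the line. Timp3, lower in tumours than in kidney, was lower still in the lines with Dox, at 1271 to 1418 units in VM-3055 cells against 3788 to 9709 in VM tumours.

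**Figure D5:**
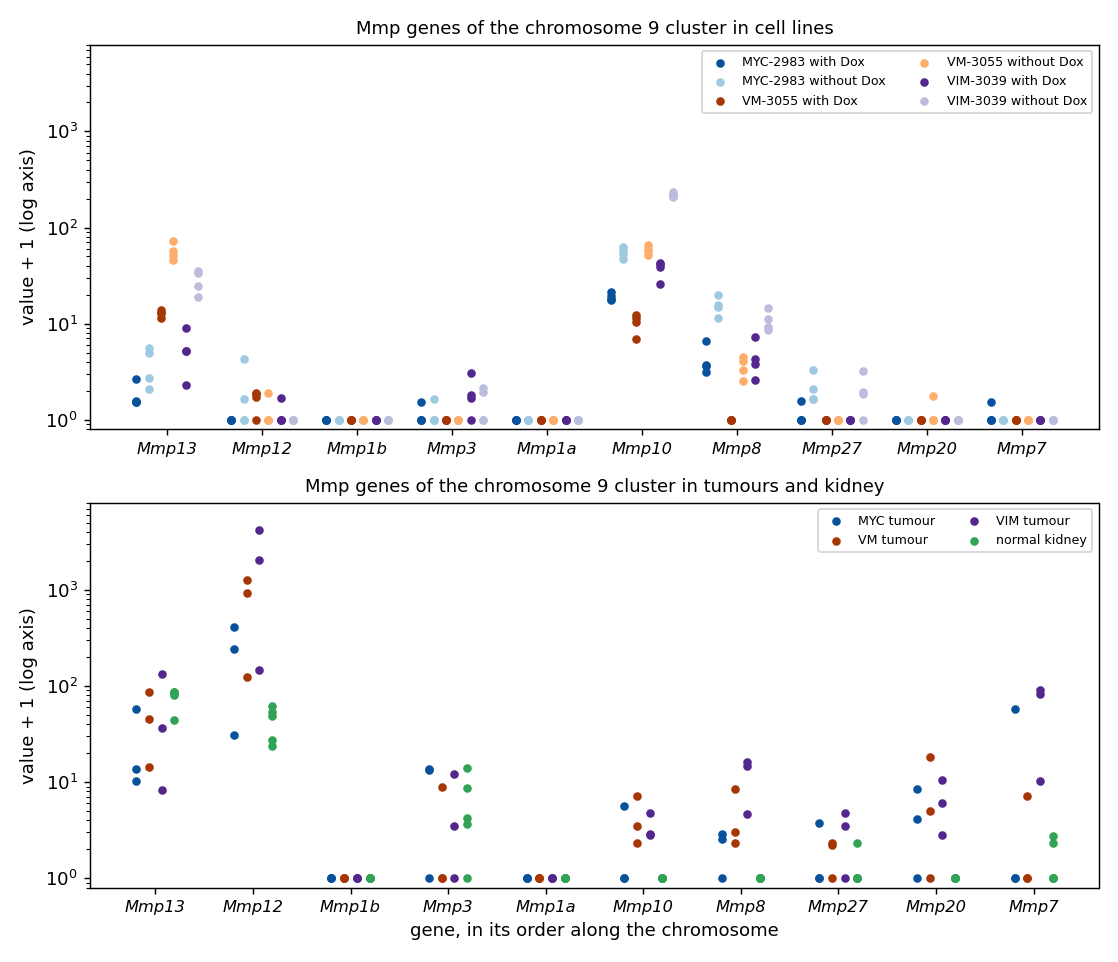
Normalised value + 1 on a log axis for the 10 Mmp genes of the chromosome 9 cluster in their order, with a point for each library, cell lines above and tissue below. In cell lines only Mmp13, Mmp10 and Mmp8 stand clear of 0 in most groups, and in tumours Mmp12 stands above its neighbours, up to 4252 units.

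The 10 neighbours on chromosome 9 did not share one pattern. Mmp10, Mmp13 and Mmp8 were the cluster genes found in cells, all lower with Dox, though Mmp8 in VM-3055 and Mmp13 in MYC-2983 cells lay near the floor. Mmp10 was highest in VIM-3039 cells without Dox (207 to 231 units) whereas Mmp13 was highest in VM-3055 cells without Dox (44.8 to 71.3). Mmp12, whose transcript overlaps that of Mmp1b on the other strand, was the cluster gene with the highest level in tumours, and was never above 3.26 units in cells. Mmp1a and Mmp1b were at 0 throughout, and Mmp3, Mmp27 and Mmp20 never exceeded 17.3 units.

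Of 37 related genes that activate, inhibit or anchor these enzymes, 31 were tested in MYC-2983 cells, of which 1 was higher and 13 lower with Dox, 30 in VM-3055 cells (1 higher and 13 lower) and 30 in VIM-3039 cells (1 higher and 16 lower). Of all genes tested, 4.49%, 5.92% and 7.67% were higher and 15%, 18.9% and 16.6% lower. Plau, the urokinase that activates plasmin, fell in all 3 lines, with 575 to 712 units with Dox and 3108 to 3244 without in MYC-2983 cells (−2.296 ± 0.052, SE, adjusted p = 4.23e-17). For VM-3055 cells its change was −1.67 ± 0.041 and for VIM-3039 cells −1.599 ± 0.036 (SE). Lrp1, the receptor that clears proteases bound to inhibitors, fell in all 3 lines (−2.11 ± 0.089, −3.36 ± 0.25 and −1.97 ± 0.13, SE). Pcsk6, a proprotein convertase, rose in MYC-2983 (1.55 ± 0.047, SE, adjusted p = 1.37e-15) and VM-3055 cells (1.92 ± 0.061, SE, adjusted p = 1.22e-14). Its change in VIM-3039 cells (0.96 ± 0.058, SE, adjusted p = 1.52e-12) was under the limit of 1. Serpine2, an inhibitor of serine proteases, was higher in VIM-3039 than in VM-3055 cells with Dox, with means of 226 ± 18.1 and 0.185 ± 0.369 units (SD, n = 4). In tumours 7, 6 and 8 related genes were higher than in kidney and 11, 14 and 12 lower, in the order MYC, VM and VIM, of 36, 36 and 37 tested, where 19.4%, 17.3% and 18.9% of all genes were higher and 17.7%, 22.5% and 20.7% lower. Mep1b, a meprin of the tubule brush border, fell in all 3 genotypes (mean of 3872 ± 1082 units in kidney, SD, n = 5), and Adam8, a membrane protease of leukocytes, rose (4.82 ± 0.60, 4.98 ± 0.52 and 6.09 ± 0.72, SE).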

How the data were processed

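RNAseq was made from polyA RNA with a stranded kit (TruSeq Stranded mRNA). Reads were aligned by the authors with MapSplice to the mouse genome mm9, sorted and translated to transcript coordinates, filtered, and quantified with RSEM on UCSC known genes, with Picard 1.64 and SAMtools among the tools in the submitters' processing notes. The deposited signal values per gene are RSEM estimates scaled by the authors to an upper quartile of 1000 per library (998.1 to 1000 when recomputed over genes above 0). Scaled this way, values are relative to the upper quartile of the library, so that a change in total RNA per cell is not seen. Reads were estimated from the value that 1 read is worth (94.1 to 95.9% of values under 20 reads came out whole within 0.02), and used for depth, for the floor of 3 reads and for limma voom. The floor covers counting error only.

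The members were taken by symbol, and the members and lists were chosen with earlier results of these data known. The tests used limma (version 3.58.1, R 4.3.3) on values as log2(value + 1), with a trend in the prior variance, over all genes above 0 in at least 4 libraries (cells) or 2 samples (tissue) of the groups compared. Fold changes on this scale understate the change of low genes. Calls required a p under 0.05 after Benjamini-Hochberg adjustment over all genes tested, and a log2 change over 1. Libraries of 1 mouse were averaged, so that MYC tumours enter as 2 mice. Members were described in full where they were a Timp gene or had a mean of at least 50 units in a group and passed in a comparison, 26 in all, and others were named by group. A related gene that met the rule for naming is not reported here. Alternatives were pseudocounts of 0.1 and 10, no filter or a mean of at least 10 units, median-ratio and quantile scaling, all groups in one fit, limma voom, the replicate block, kidneys labelled KT only, every tumour library as a sample, and leaving out each library. On simulated data for the Dox comparison in VM-3055 cells, 200 of 200 genes changed 4-fold were called with 5 others of 14458, and for VM tumours against kidney 143 of 200 with 5 others of 16638. The changed genes were drawn from those with a mean of at least 50 units, so these shares do not apply to lower members. Tables were handled with Python 3.11.15 and pandas 2.3.3, and plots with matplotlib 3.10.9. Replicate libraries differed by more than sampling noise in every pair. Coordinates of genes are mm9 (GENCODE vM1) and those of promoters GRCm38.p6 (RefSeq).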

Additional observations from a re-analysis of the deposited data

Results flagged for a closer look

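In 88 groups of 4 or 5 libraries of the 26 members described in full, 7 held a library far from the others by Dixon's criterion, where chance marks about 1 in 20. In MYC-2983 cells without Dox these were Mmp2 in library 4 (426.6 units, the nearest at 388.9), Mmp19 in library 2 (58.4, nearest 52.9), Adamts6 in library 3 (204.9, nearest 191) and Timp3 in library 4 (11130, nearest 10820). Adamts6 was high in library 1 of VIM-3039 cells without Dox (443, nearest 393). In normal kidney, Mmp13 was low in replicate 2 (43.8, nearest 79.6) and Mmp14 high in replicate 5 (270.7, nearest 128), the kidney in which the fibroblast markers summed to 5321 units against 1560 to 3536 in the others. The part of those cells in the Mmp14 value was not tested.

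The change with Dox differed between VIM-3039 and VM-3055 cells, by the interaction of line and Dox in limma, for 10 members. The difference of the log2 changes, VIM-3039 minus VM-3055, was 1.07 for Adamts1, 1.196 for Adamts5 and 1.497 for Mmp25. It was −1.36 for Mmp2, −2.15 for Mmp14, −2.03 for Mmp15 and −1.45 for Mmp28. It was −2.07 for Adamts8, −2.11 for Adamts17 and −2.85 for Adamts20. No VM-3055 library held Mmp2 or Mmp14 above the floor, and Mmp25 was listed at 0 in all VIM-3039 libraries.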

How the results depend on the processing

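Counts of members that passed moved by over 1.5 times under few settings. A pseudocount of 10 gave 16 with Dox in MYC-2983 cells (26 as reported), and 11, 13 and 11 for VIM-3039 against VM-3055 cells with Dox, without Dox and VIM-3039 against MYC-2983 cells (20, 23 and 18). A filter at a mean of at least 10 units gave 17, 11, 15 and 11, with fewer genes tested. For the interaction (10), pseudocounts of 0.1 and 10 gave 5 (3 positive and 2 negative) and 6 (2 and 4), and that filter 4 (2 and 2). The fit of all tissue groups gave 2 for VIM against VM tumours and 3 each for VM and VIM against MYC tumours, where the separate fits gave 0. Of all genes, 469, 407 and 719 passed in that fit, where 40, 0 and 1 did in the separate fits. The causes were not tested. With 1 setting, quantile normalization, a passed value turned (Adamts8 in VIM-3039 against MYC-2983 cells, 0.0067 on the log2 scale, adjusted p = 0.984).

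Leaving out 1 library gave 23 to 27, 21 to 24 and 19 to 21 members for the Dox comparison, in the order MYC-2983, VM-3055, VIM-3039. It gave 16 to 18 and 21 to 24 for VIM-3039 against VM-3055 cells with and without Dox, 18 to 22 and 16 to 19 for VM-3055 and VIM-3039 against MYC-2983 cells, and 9 to 12 for the interaction. MYC, VM and VIM tumours against kidney gave 17 to 20, 19 to 23 and 18 to 22, and comparisons among tumours 0 in each case. Without the first MYC tumour library 1 mouse remains, whose spread is assumed to be that of the other group.

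With kidneys labelled KT only, 14, 19 and 16 passed in MYC, VM and VIM tumours, and the splits of higher and lower were 10 and 4, 10 and 9, and 10 and 6. Those of all genes were 2656 and 2587, 2582 and 3425, and 2788 and 3161. With every tumour library as a sample, 17 passed in MYC tumours (8 higher and 9 lower). With limma voom the splits were 14 and 5 in MYC and 12 and 6 in VIM tumours, where those of all genes were 5162 and 1993, and 4181 and 2630. Over single members and settings, 3469 values kept their side of the threshold, 322 lost and 100 gained it.

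The replicate numbers shared by VM-3055 and VIM-3039 cells do not pair the libraries, since the mean correlation of same-numbered libraries was −0.184 to 0.082 and 0 to 2 of 4 correlated best with their own number. With the replicate block, 22 and 21 passed with Dox, 19 and 23 between the lines with and without Dox, and 10 for the interaction. The block is no part of the design, and no pairing was possible in MYC-2983 cells or tissue. Members under 10 units are limited by depth.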
